A study of Mus musculus with 6 samples.

Results

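The miR-146 family was followed in macrophages grown from the bone marrow of mice lacking ApoE (ApoE-KO, called EKO) and of WT mice. Its members were taken by name from the tables of mature microRNAs (miRNAs): the guide arms mmu-miR-146a-5p and mmu-miR-146b-5p and the passenger arms mmu-miR-146a-3p and mmu-miR-146b-3p, 4 of 911 mature references. No member sat in a joint entry with another miRNA, and stem-loop references were left out. Small RNA was sequenced from 3 EKO and 3 WT biological replicates. Both groups came from age-matched males of 6 to 12 weeks, whose marrow was kept in DMEM with 10% serum and given M-CSF, the macrophage growth factor, at 25 ng/mL every 2 days for 6 days. The labels name neither strain nor allele, nor any Toll-like receptor ligand or lipid load, and no stimulation of the cells is stated. ApoE mRNA is not measured by these tables, and no value here checks the genotypes.

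Toll-like receptors sense microbial products and signal through the kinase IRAK1 and the ubiquitin ligase TRAF6 to NF-kB, which drives inflammatory genes. NF-kB also induces miR-146a, whose guide arm binds the transcripts of Irak1 and Traf6, so that the miRNA acts as a brake on the pathway that induces it. miR-146b is made from another chromosome and has nearly the same guide sequence. ApoE, a lipid carrier that macrophages secrete, has been reported to raise miR-146a in monocytes and macrophages, which is why the family is of interest in cells without it.

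The guide sequences show why both are counted as one family: they share the seed (bases 2 to 8 from the 5′ end, in capitals), which selects targets. Among the 4 arms the passenger arms carry seeds of their own. The RefSeq sequences on GRCm38.p6 are given 5′ to 3′.
miR-146a-5p: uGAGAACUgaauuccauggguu
miR-146b-5p: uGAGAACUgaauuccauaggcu
miR-146a-3p: cCUGUGAAauucaguucuucag
miR-146b-3p: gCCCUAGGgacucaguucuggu
Each arm is 22 bases long. The guide arms match at 20 positions and differ, counted from the 5′ end of miR-146a-5p, by G18A and U21C. The passenger arms match at 4 of 22 positions. Of the mature mouse miRNAs in the RefSeq table, only these 2 carry the guide seed. A read ending before base 18 cannot tell the guide arms apart. The excess of total read counts over counts with shared reads divided is therefore given beside the levels below.

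Both precursors are shown with their mature arms in capitals, to place the abundant 5′ arm and the rare 3′ arm on the hairpin. Mir146, the miR-146a gene, lies at chr11:43374397-43374461 on the minus strand (GRCm38.p6), and GENCODE M21 annotates no other gene over it. Mir146b lies at chr19:46342762-46342870 on the plus strand, in an intron of the protein-coding gene Mfsd13a on the same strand. The count tables carry no coordinates.
Mir146: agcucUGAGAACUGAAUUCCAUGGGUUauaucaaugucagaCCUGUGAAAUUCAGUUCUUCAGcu
Mir146b: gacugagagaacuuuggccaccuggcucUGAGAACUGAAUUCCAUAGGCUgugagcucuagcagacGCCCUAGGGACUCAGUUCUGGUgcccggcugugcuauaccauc

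To show what the shared seed pairs with, the seed match AGUUCUC was searched on the sense strand of the longest annotated 3′ untranslated region (UTR) of Irak1 and Traf6 (GENCODE M21, GRCm38). Irak1 held 2 matches in 1526 bases and Traf6 held 4 in 4170 bases. The first match of each is printed with the match in capitals, from chrX:74015393-74015415 on the minus strand for Irak1 and chr2:101697944-101697966 on the plus strand for Traf6.
Irak1: agacucagaggucaaAGUUCUCa
Traf6: accgcucugguguugAGUUCUCa
At least 1 match occurred in 11.4% of 2857 mouse 3′ UTRs within 20% of the length of that of Irak1, and in 31.6% of 1452 such UTRs for Traf6. The shares of UTRs with as many matches as Irak1 or Traf6 were not counted. A match is a description of sequence, and no target transcript was measured in these libraries.

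The libraries held 34651511 to 39532544 reads on mature miRNAs in EKO and 38440290 to 41331604 in WT. Fewer mature references had at least 1 read in EKO (543 to 591) than in WT (664 to 698). Levels are given as CPM, the reads of a miRNA per 1000000 reads on mature miRNAs of its library, with reads that match several references divided among them by the authors. Ligation and amplification favour some sequences, so levels of different miRNAs cannot be compared closely within a library. The molecular-barcode column summed to 0, so PCR copies were not removed and every floor below covers counting error only. A bulk library cannot tell fewer cells that carry a miRNA apart from less of it per cell.

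Both guide arms were abundant in every library, and neither differed between EKO and WT macrophages by more than its replicates did. Levels of miR-146a-5p were 1694, 2216 and 2680 CPM in the 3 EKO libraries and 2330, 1962 and 2067 CPM in the 3 WT libraries. The lowest and the highest of these 6 values were both EKO libraries, and the groups overlapped. The means were 2197 ± 493 CPM in EKO and 2119 ± 189 CPM in WT (SD, n = 3 each). The log2 fold change was 0.07 ± 0.15 (SE), with an adjusted p of 0.903 over all 575 tested miRNAs by edgeR's quasi-likelihood test with Benjamini-Hochberg adjustment. Its 95% interval ran from -0.28 to 0.42 on the log2 scale, that is from 0.826-fold to 1.34-fold. The sign rested on 1 library: without EKO replicate 3 the log2 fold change was -0.07, and without EKO replicate 1 it was 0.20.

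The other guide arm, miR-146b-5p, stood at 1814, 2140 and 2276 CPM in EKO and at 2345, 2098 and 2028 CPM in WT. The range in EKO covered most of the range in WT, with EKO replicate 1 again the lowest of the 6. The means were 2077 ± 237 CPM in EKO and 2157 ± 166 CPM in WT (SD, n = 3 each). The log2 fold change was -0.03 ± 0.11 (SE, adjusted p = 0.961, edgeR quasi-likelihood test). The 95% interval ran from -0.29 to 0.23, that is from 0.816-fold to 1.17-fold, the narrower interval of the guide arms. Its sign was positive with DESeq2 size factors (0.05), so no direction is given for it. In this fit the lower ends of both intervals put a fall below 0.816-fold in EKO outside the 95% range for either guide arm. Other settings reached lower. With total counts only the lower ends were 0.788-fold for miR-146a-5p and 0.792-fold for miR-146b-5p. Without WT replicate 3 that of miR-146a-5p was 0.768-fold. Differences inside the intervals, such as a rise of miR-146a-5p of up to 1.34-fold, were not detectable with 3 libraries a group.

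**Figure D1:**
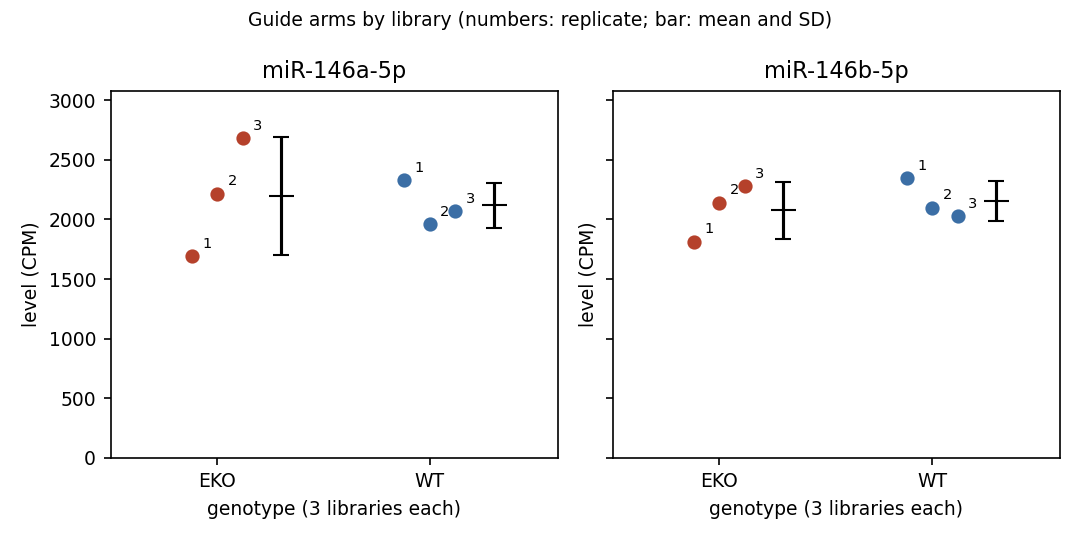
Level of each guide arm (CPM) in the 3 EKO and 3 WT libraries, with replicate numbers beside the points and the mean and SD as a black bar. The EKO and WT points overlap for both guide arms, and the EKO points of miR-146a-5p are spread from 1694 to 2680 CPM.

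Reads that match more than 1 reference bear on these levels little. For miR-146a-5p the total read count exceeded the divided count by 0.0766% to 0.108% in EKO and by 0.104% to 0.125% in WT. For miR-146b-5p the excess was 0.0707% to 0.126% in EKO and 0.0956% to 0.121% in WT. A shared read adds to this excess only the part given to other references, so the share of such reads is larger. In each library the excess of one guide arm was within 4 reads of that of the other, for example 45 and 44.5 reads in EKO replicate 1 and 112 and 109 reads in WT replicate 1. With total read counts in place of divided counts, the log2 fold changes were 0.12 for miR-146a-5p and 0.01 for miR-146b-5p. That fit used total counts and new scaling for all miRNAs. Their median log2 fold change was -0.12 there and -0.16 with divided counts. In both fits miR-146a-5p lay 0.23 and miR-146b-5p 0.13 above the median.

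No miRNA passed an adjusted p of 0.05 in this comparison (0 of 575 tested, 0%), and the guide arms shared that with all others. Unadjusted p-values under 0.05 were found for 123 miRNAs (21.4%; 48 higher and 75 lower in EKO), neither guide arm among them, and DESeq2 called 100 and limma-voom 32, again neither guide arm. For 31.3% of the 575 all EKO values lay to one side of all WT values, whereas both guide arms overlapped. Their fold changes were among the smallest measured: 47 of 575 miRNAs had a smaller absolute log2 fold change than miR-146a-5p and 26 a smaller one than miR-146b-5p. Over the 575 miRNAs the log2 fold changes had a median of -0.16, with miR-146a-5p 0.23 and miR-146b-5p 0.13 above it. That median depended on the low-count filter: it was -0.02 over 370 miRNAs with a minimum of 10 reads in each library, where the guide arms lay 0.14 and 0.03 above it, and -0.03 over 251 miRNAs with a mean of 10 CPM or more, where they lay 0.13 and 0.03 above it.

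**Figure D2:**
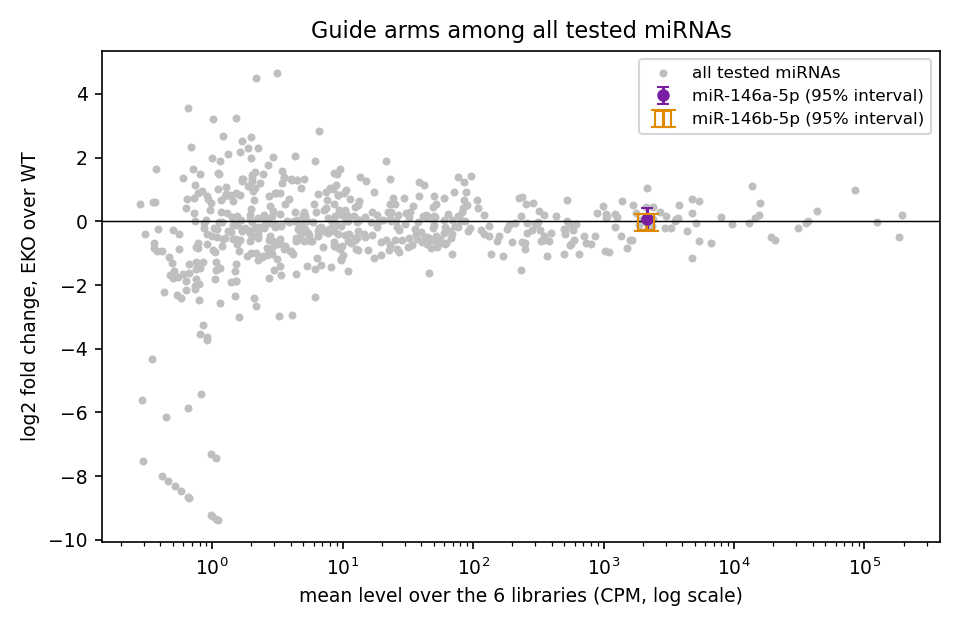
Log2 fold change of EKO over WT against mean level (CPM, log axis) for the 575 tested miRNAs, with the guide arms and their 95% intervals in colour. The guide arms lie near 0, at mean levels of 2158 and 2117 CPM. Points far below 0 at low levels include miRNAs with no or almost no reads in EKO, whose fitted size depends on the prior count.

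Because both guide arms carry one seed, their sum gives the level of the family. The 4 arms together reached 3509, 4356 and 4956 CPM in EKO and 4675, 4062 and 4095 CPM in WT. Replicates of EKO lay on both sides of all 3 WT values. The means were 4273 ± 727 CPM in EKO and 4277 ± 345 CPM in WT (SD, n = 3 each), a difference of -3.69 CPM (two-sided exact permutation p = 1). With 3 libraries against 3 this test cannot go below 0.1. Over the 7 permutation tests reported here the smallest Benjamini-Hochberg adjusted p was 0.35.

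The reads of the family were split nearly evenly between the guide arms. The ratio of miR-146a-5p to miR-146b-5p was 0.934, 1.04 and 1.18 in EKO and 0.993, 0.935 and 1.02 in WT. EKO replicate 3 had the highest ratio and EKO replicate 1 the lowest, with WT replicate 2 close to it. The mean log2 ratio was 0.06 ± 0.17 in the EKO libraries and -0.03 ± 0.06 in the WT libraries (SD over 3 libraries), a difference of 0.09 (two-sided exact permutation p = 0.5). This ratio is taken within a library and does not depend on scaling between libraries. Ligation and amplification can favour either arm, so a ratio of reads does not give the ratio of the molecules. Ordered by mean CPM, the groups ran miR-146a-5p in EKO, miR-146b-5p in WT, miR-146a-5p in WT and miR-146b-5p in EKO, and no neighbours in that order differed beyond their spread.

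The EKO libraries varied more in miR-146a-5p than in miR-146b-5p. On the log2 scale of TMM-scaled CPM the SD of miR-146a-5p was 0.27 in EKO and 0.12 in WT, and that of miR-146b-5p was 0.10 in EKO and 0.13 in WT (n = 3 each). Of the 57 miRNAs with a mean of 1000 CPM or more, 38 had a smaller SD in EKO than miR-146a-5p, and the median SD was 0.19 in EKO and 0.13 in WT. The spread of miR-146a-5p in EKO thus lay above the middle of these 57 miRNAs, and no test of spread was made with 3 libraries. EKO replicate 1, the lowest in both guide arms, was also the library with the fewest reads and the fewest detected miRNAs, and the part of depth in its values was not tested.

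**Figure D3:**
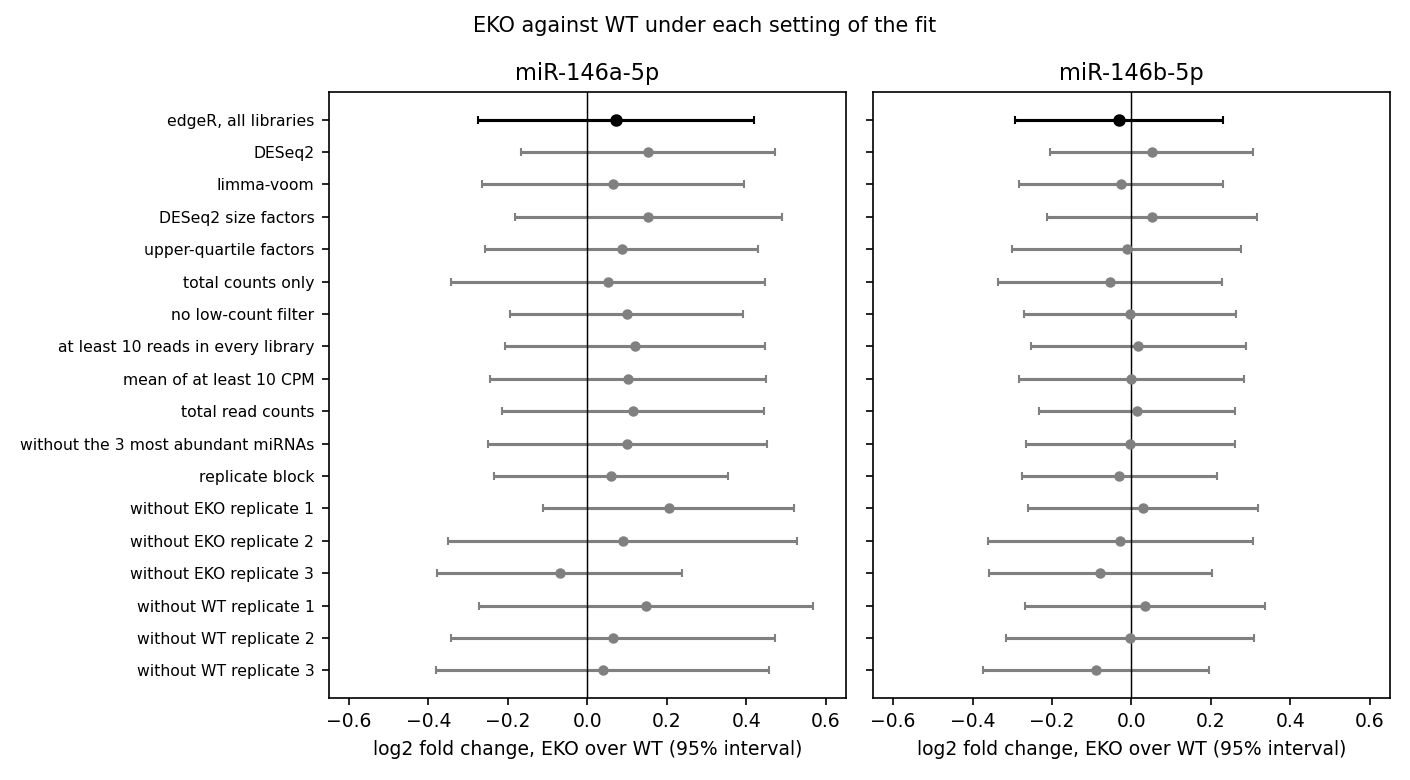
Log2 fold change of EKO over WT with its 95% interval for each guide arm, under the edgeR fit to all libraries (black) and under each other setting (grey). Every interval includes 0, and the sign of miR-146b-5p changes between settings.

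The passenger arms were near the limit of detection and were seen in WT libraries only. Reads of miR-146b-3p numbered 0, 0 and 0 in EKO and 11, 75 and 2 in WT. In WT replicate 2 those 75 reads were 6 distinct sequences, and in the other WT libraries 1 each. This arm reached 1.81 CPM in WT replicate 2, against floors of 0.0759 to 0.0866 CPM that 3 reads would give in the EKO libraries. Summed over each group, the WT level of miR-146b-3p was 27.0-fold the level that 3 reads would give in EKO. That ratio was 6.08-fold without WT replicate 2, 34.7-fold without WT replicate 1 and 40.0-fold without WT replicate 3. A single library thus carried most of it. WT replicate 3, at 0.0489 CPM, lay under the floor of every EKO library. The ratio pools replicates and does not cover the spread between them, so it sets no bound on the difference between genotypes.

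Reads of miR-146a-3p numbered 0 in every EKO library and 0, 13 and 0 in WT, the 13 reads being 2 distinct sequences. Neither passenger arm passed the low-count filter, and neither passed without it (adjusted p = 0.408 for miR-146b-3p and 0.416 for miR-146a-3p, edgeR quasi-likelihood test). DESeq2 gave miR-146b-3p an adjusted p of 0.104 and miR-146a-3p none. Being seen in WT alone was common here: 193 of 910 mature references (21.2%) had reads in WT and in no EKO library, and 50 (5.49%) the reverse. At this depth a level of the passenger arms in EKO at or under the floor was not detectable.

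The use of the hairpin arms was one-sided in both genotypes. Of the reads on both arms of miR-146b, the passenger arm took 0 of 231862 in EKO, which allows a share of up to 0.00129%, and 0.0339% in WT. For miR-146a the passenger arm took 0 of 245701 reads in EKO, which allows up to 0.00122%, and 0.00509% in WT. These shares pool the libraries of a group, and the bounds cover counting error only. WT replicate 2 gave 75 of the 88 WT reads of miR-146b-3p and all 13 of miR-146a-3p. No difference in arm use between genotypes is therefore read from them. Among 34 hairpins with a major arm averaging at least 1000 CPM, the minor arm held a median of 0.65% of the reads over all 6 libraries. On that scale miR-146a, with 0.0026%, ranked 5th lowest and miR-146b, with 0.0179%, ranked 8th lowest. The other hairpins at that end included let-7g, let-7i and miR-21a, so a rare passenger arm was not particular to the miR-146 family.

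The tables also count the distinct read sequences behind each level, which arise from trimmed or extended ends, sequence changes and errors. For miR-146b-5p there were 354, 409 and 445 distinct sequences in EKO and 516, 499 and 459 in WT. Every EKO library had fewer than every WT library, at 403 ± 45.8 in the EKO libraries and 491 ± 29.3 in the WT libraries (SD, n = 3 each, two-sided exact permutation p = 0.1, the smallest this design allows). Of the 575 tested miRNAs, 32.5% had this order, so the pattern of miR-146b-5p is a common one in these libraries. For miR-146a-5p there were 306, 374 and 402 in EKO and 452, 369 and 389 in WT, with overlapping groups (361 ± 49.4 in the EKO libraries and 403 ± 43.3 in the WT libraries, SD, n = 3 each, exact permutation p = 0.5).

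Over all mature references the distinct sequences numbered 48275, 54098 and 57650 in EKO and 62650, 62572 and 67508 in WT, lower in every EKO library (two-sided exact permutation p = 0.1, the smallest this design allows). As a share of these, miR-146b-5p took 0.754% ± 0.0194 in the EKO libraries and 0.767% ± 0.0765 in the WT libraries (SD, n = 3 each, exact permutation p = 0.9). The share of miR-146a-5p was 0.674% ± 0.035 in the EKO libraries and 0.629% ± 0.0802 in the WT libraries (exact permutation p = 0.4). Relative to the library, then, neither guide arm had a different share of distinct sequences beyond the spread between replicates. miR-146b-5p had more distinct sequences than miR-146a-5p in all 6 libraries, although its reads did not exceed those of miR-146a-5p in EKO replicates 2 and 3 and WT replicate 3.

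**Figure D4:**
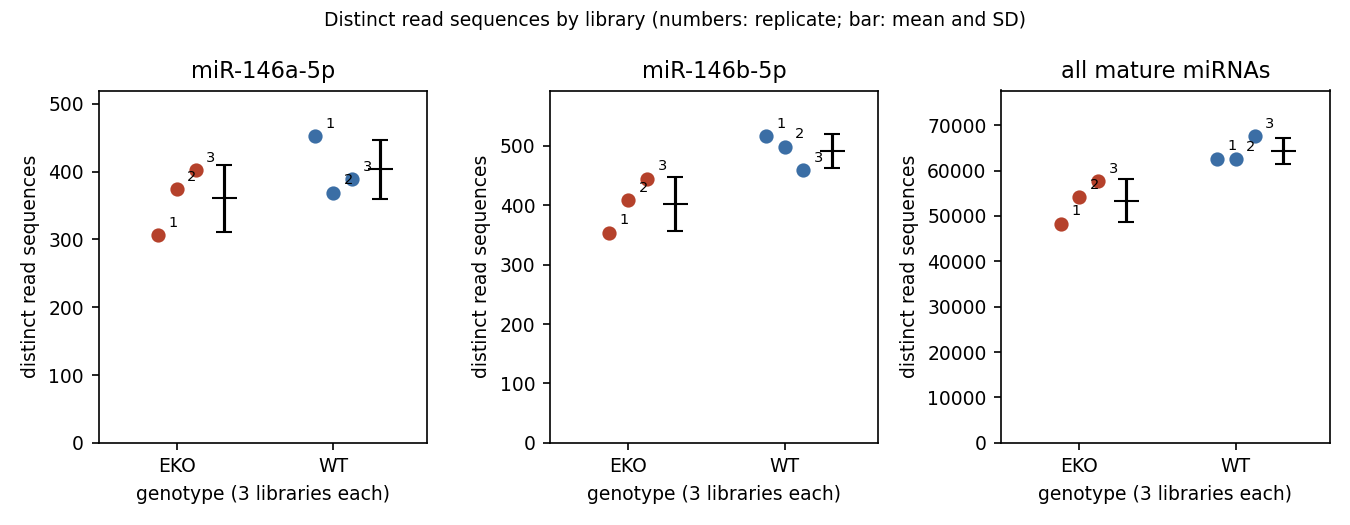
Distinct read sequences of each guide arm and of all mature miRNAs, by library, with replicate numbers and the mean and SD as a black bar. For miR-146b-5p and for all mature miRNAs the 3 EKO points lie below the 3 WT points, and for miR-146a-5p the groups overlap.

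Within the libraries, miR-146a-5p ranked 45th, 39th and 34th by level in EKO and 37th, 39th and 41st in WT. miR-146b-5p ranked 41st, 40th and 36th in EKO and 36th, 36th and 42nd in WT. By mean CPM over all 6 libraries miR-146a-5p stood between let-7j (2366 CPM) and miR-1981-5p (2141 CPM). miR-146b-5p stood between miR-27a-5p (2129 CPM) and let-7d-3p (1902 CPM). Of these neighbours miR-1981-5p averaged 2865 ± 504 CPM in EKO and 1417 ± 224 CPM in WT (SD, n = 3 each; adjusted p = 0.0766, edgeR). miR-27a-5p averaged 2431 ± 308 CPM in EKO and 1828 ± 207 CPM in WT (adjusted p = 0.157, edgeR). let-7j averaged 2211 ± 91.6 CPM in EKO and 2521 ± 217 CPM in WT (adjusted p = 0.455, edgeR), and let-7d-3p averaged 1900 ± 296 CPM in EKO and 1905 ± 223 CPM in WT (adjusted p = 0.980, edgeR). None of the 4 passed the threshold.

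The miRNAs whose levels moved most like the guide arms were found by the root-mean-square difference of centred log2 TMM-scaled CPM over the 6 libraries, among 250 others averaging at least 10 CPM. For miR-146a-5p these were miR-467c-5p (0.06), miR-181d-5p (0.09) and miR-100-5p (0.10), where the median of all was 0.39. Like miR-146a-5p, all 3 were lowest in EKO replicate 1. For miR-146b-5p they were miR-30d-5p (0.02), miR-222-5p (0.04) and miR-1843b-5p (0.05), where the median was 0.35. miR-146b-5p was the 4th most like miR-146a-5p, and miR-146a-5p the 10th most like miR-146b-5p, at 0.11. The 6 libraries of each pair share depth and scaling, and miRNAs that vary little all lie close together on this measure.

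Other miRNAs described as restraining Toll-like receptor or NF-kB signalling were set beside the family. Of 18 such miRNAs 16 were tested, none passed (edgeR quasi-likelihood test), 12 had lower and 4 had higher fitted values in EKO, and 9 had an unadjusted p under 0.05, 7 lower and 2 higher, where 123 of all 575 (21.4%) had one, 75 lower and 48 higher. The count of 0 depended on the setting: 3 to 8 of the list passed under 7 other settings. These were DESeq2, limma-voom, 3 other low-count rules, the replicate number as a block, and leaving out EKO replicate 3. Each called 32 to 100 miRNAs in all. Their median log2 fold change was -0.49, against -0.16 for all 575 tested, of which 335 (58.3%) had lower values, and the median over all moved with the filter as given above. The 4 most abundant were let-7i-5p, which targets Tlr4, miR-21a-5p, which targets Pdcd4, miR-10a-5p and miR-23b-3p. let-7i-5p averaged 203563 ± 2090 CPM in EKO and 182039 ± 7543 CPM in WT (SD, n = 3 each; log2 fold change 0.19 ± 0.09 SE, adjusted p = 0.306, edgeR). miR-21a-5p averaged 151420 ± 13398 CPM in EKO and 217886 ± 7115 CPM in WT (log2 fold change -0.50 ± 0.09 SE, adjusted p = 0.0766, edgeR). The fitted differences of miR-10a-5p and miR-23b-3p were 0.59 ± 0.17 and -0.60 ± 0.16 (log2, SE). Of the 16, 11 did not overlap between EKO and WT, where 31.3% of all tested miRNAs did not. The list was chosen with earlier results of these data known, so its counts describe the list and test nothing about the pathway. Each of let-7i-5p, miR-21a-5p, miR-10a-5p and miR-23b-3p had a larger absolute log2 fold change than either guide arm of the miR-146 family. No difference between them and the guide arms was tested.

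The second list held 16 miRNAs that Toll-like receptors or NF-kB are described to induce in macrophages, as they do miR-146a. Of these 13 were tested, none passed, 11 had lower and 2 had higher fitted values in EKO (12 lower by total counts only), and 4 had an unadjusted p under 0.05, 3 lower and 1 higher. Over all 575 miRNAs 58.3% had lower values and 21.4% an unadjusted p under 0.05. Under the 7 settings that called members of the first list, 3 to 4 of this one passed. The median log2 fold change was -0.47, and 5 of the 13 did not overlap between EKO and WT, against 31.3% of all tested miRNAs. Several miRNAs, miR-21a-5p and let-7e-5p among them, stand in both lists. The second list, too, was chosen with earlier results of these data known, and its counts are a description only. miR-155-5p, the best known inflammation-induced miRNA, stood at 7.45, 17.4 and 30.7 CPM in EKO and at 34.5, 34.5 and 33.2 CPM in WT (log2 fold change -0.88 ± 0.44 SE, adjusted p = 0.323, edgeR), and was named after its values were seen. The 4 most abundant were miR-21a-5p, miR-99b-5p, let-7e-5p and miR-125a-5p. The last 3 come from one cluster. Their log2 fold changes were -0.22 ± 0.18, -0.69 ± 0.15 and -1.51 ± 0.32 (SE), with adjusted p of 0.626, 0.0766 and 0.0766 (edgeR).

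**Figure D5:**
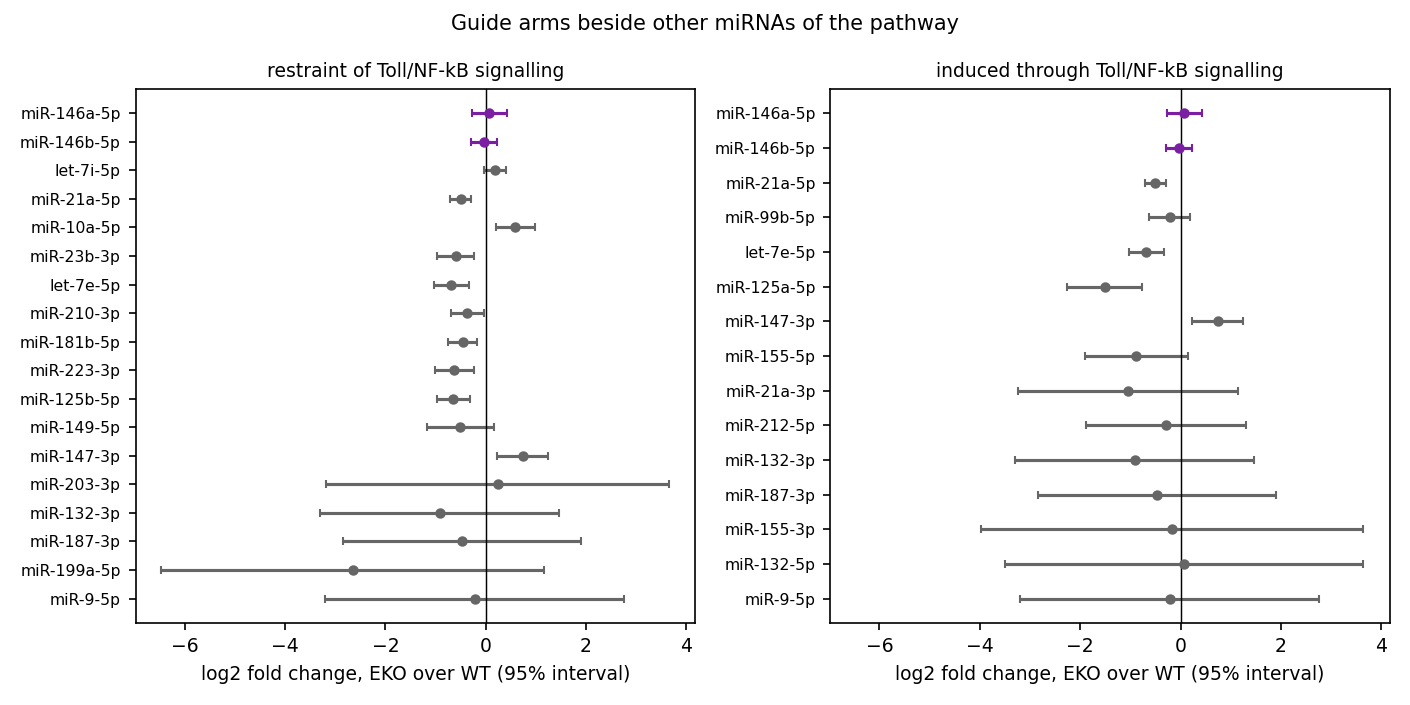
Log2 fold change of EKO over WT with 95% intervals for the guide arms (purple) and for the tested miRNAs of both lists (grey), ordered by mean level within each list. The intervals of the guide arms include 0 and are narrow, while those of miR-21a-5p, let-7e-5p, miR-125a-5p, miR-23b-3p, miR-210-3p, miR-181b-5p, miR-223-3p and miR-125b-5p lie below 0 and those of miR-10a-5p and miR-147-3p above it, before any adjustment for the number of miRNAs.

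Lymphocytes also express miR-146a, so markers of other cells that a marrow culture could hold were summed. The 5 lymphoid miRNAs, all detected, summed to 537 to 649 CPM in EKO and 728 to 846 CPM in WT, with the lymphocyte marker miR-150-5p at 2.60 to 5.42 CPM in EKO and 4.60 to 5.96 CPM in WT. In that list 1 of 4 tested members had a higher and 3 had a lower fitted value, and miR-181b-5p was the 1 that did not overlap, at 256, 297 and 316 CPM in EKO and 391, 365 and 462 CPM in WT (adjusted p = 0.0851, edgeR), where 31.3% of all tested miRNAs did not overlap. The 6 myeloid miRNAs were all detected and summed to 3708 to 4167 CPM in EKO and 3526 to 4039 CPM in WT. That sum joins members that differed in direction. miR-223-5p, its most abundant member, stood at 2673, 2880 and 2731 CPM in EKO and 2162, 2006 and 1959 CPM in WT (adjusted p = 0.0766 by edgeR, log2 fold change 0.46). The other 5 had lower fitted values in EKO, with log2 fold changes of -0.45 for miR-142a-3p, -0.62 for miR-223-3p and -0.64 for miR-142a-5p. Those of the rarer miR-511-5p and miR-511-3p were -2.98 and -1.78 (adjusted p = 0.189 and 0.788, edgeR). Levels of miR-511-5p were 1.62, 0.0759 and 0.378 CPM in EKO and 4.53, 6.73 and 6.04 CPM in WT. Of the 6, 4 did not overlap between EKO and WT, where 31.3% of all tested miRNAs did not. The erythroid list (2 of 4 entries detected, miR-144-3p and miR-144-5p at 0) summed to 117 to 145 CPM in EKO and 127 to 160 CPM in WT, nearly all of it miR-486a-5p and miR-486b-5p. Its other member, the red-cell miRNA miR-451a, stood at 5.92, 5.31 and 1.29 CPM in EKO and 0, 0 and 0.587 CPM in WT, higher in every EKO library (adjusted p = 0.260, edgeR). The stromal list (5 of 5 entries) summed to 77.5 to 118 CPM in EKO and 183 to 225 CPM in WT. Nearly all of it was miR-143-3p, which averaged 88.7 CPM in EKO and 187 CPM in WT (adjusted p = 0.0777, edgeR). Of its 4 tested members 3 had lower fitted values in EKO and 1, miR-214-3p, a higher one. The epithelial list (6 of 6) summed to 114 to 174 CPM in EKO and 140 to 157 CPM in WT. The lymphoid and stromal sums were lower in every EKO library than in every WT library while the guide arms of miR-146 overlapped. Each of these sums rested on few miRNAs, the stromal sum on miR-143-3p and the lymphoid sum on miR-181a-5p and miR-181b-5p. Of these, miR-181a-5p overlapped between the groups, and miR-181b-5p also stands in the list of miRNAs that restrain Toll-like receptor signalling. The part of these markers in the levels of miR-146 was not tested.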

How the data were processed

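Small RNA libraries (RNeasy Mini total RNA, NEB small RNA kit, per the labels) of 3 EKO and 3 WT cultures were grouped by title. Per the file headers, each deposited table gives counts of distinct sequences, total read counts, and an estimated count in which shared reads are divided. The genome build was mm9, per the submitters' processing notes. Aligner and counter: not given in the sources used here. Column purification of total RNA can lose small RNA.

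The authors' estimated counts were rounded and fitted with edgeR 4.0.16 in R 4.3.3: TMM, filterByExpr by genotype, quasi-likelihood test on genotype, Benjamini-Hochberg adjustment over all 575 miRNAs that passed the filter, threshold 0.05. Intervals are 95%. Other settings were DESeq2 1.42.0, limma-voom (limma 3.58.1), other scalings, filters and counts, the replicate number as a block, and each library left out in turn. Scripts were tested on simulated data. A miRNA missing from a table was taken as 0. The labels name no batch. Named miRNAs are the 4 members, the 4 most abundant of each pathway list, 3 most alike and the neighbours by level; any other was named after its values were seen. Members and lists were chosen with earlier results of these data known.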

Additional observations from a re-analysis of the deposited data

How the results depend on the processing

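Neither guide arm passed the threshold under any of 17 other settings. The log2 fold change of miR-146a-5p ranged from -0.0699 to 0.205 on leaving out each library (adjusted p from 0.483 to 0.999, edgeR), negative only without EKO replicate 3 (-0.0699). That of miR-146b-5p ranged from -0.0892 to 0.0337 there, and turned positive with DESeq2 (0.0506), DESeq2 size factors (0.0508), a minimum of 10 reads in each library (0.0175), total read counts (0.0136), without EKO replicate 1 (0.0287) and without WT replicate 1 (0.0337). The family sum differed by -345 to 379 CPM on leaving out each library, by 379 without EKO replicate 1 and 195 without WT replicate 1. It differed by 59.2 CPM on TMM-scaled library sizes and 302 CPM on DESeq2 size factors. The log2 ratio of the guide arms differed by 0.0025 to 0.17.

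Where the fit called 0 miRNAs in all, 0 of the restraint list and 0 of the inducible list, DESeq2 called 100, 8 and 4. The calls were 32, 3 and 3 by limma-voom, 52, 6 and 3 with every miRNA kept, 43, 5 and 3 with a minimum of 10 reads in each library, and 59, 7 and 4 with a mean of 10 CPM or more. Leaving out each library gave 0 to 45, 0 to 5 and 0 to 3, with calls only when EKO replicate 3 was left out. The cause was not tested. Libraries with the same replicate number showed no positive correlation of deviations from their group means (-0.10, -0.04 and -0.02). With means of 3 libraries this cannot decide whether replicate numbers mark pairs. With a replicate block 62, 7 and 3 were called. The block gave log2 fold changes of 0.06 for miR-146a-5p and -0.03 for miR-146b-5p. Ratios of 5p to 3p arms were not run, because no EKO library had 3p reads.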

Other observations

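A few reads matched the precursors outside the mature arms. The stem-loop reference of miR-146b had 1, 2 and 2 total reads in the EKO libraries and 7, 3 and 8 in the WT libraries, and that of miR-146a had 0 in all EKO libraries and 1, 0 and 0 in WT. After division among references these came to 0.5 to 1 read in EKO and 1.5 to 4 reads in WT for miR-146b. No comparison was made on counts this low.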
